A study of Mus musculus with 6 samples.

Results

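The proteasome genes described here are the 44 rows of the deposited count table whose symbols start with Psma to Psmg followed by a digit and whose mean was 50 counts or more over the 6 libraries, out of 23420 rows in all. The pattern matched 49 symbols. Psmb8, Psmb9 and Psmb10, the catalytic subunits of the immunoproteasome, were left out by the rule, and Psma8 and Psmb11 stood below the minimum with means of 37.7 and 18.5 counts. The lowest genes inside it were Psmc3ip with 425.0 and Psmg4 with 789.2 counts. By role the 44 genes were 14 subunits of the core particle (7 of the alpha ring and 7 of the beta ring), 17 subunits of the regulatory particle (6 base ATPases, 3 other base subunits and 8 lid subunits), 7 assembly chaperones, 5 activators and inhibitors, and Psmc3ip, a recombination factor that shares the symbol and is not a proteasome subunit.

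Ribosome-bound RNA was isolated with BacTRAP, the immunoprecipitation of a GFP-tagged ribosomal protein expressed under the Purkinje cell gene Pcp2, from cerebellar Purkinje neurons of C57BL/6 mice aged 4 weeks. The 3 control libraries were Pcp2-BacTrap; Rbm17 f/+, floxed on one allele, wild-type on the other and free of Cre. The 3 conditional knockout (cKO) libraries were Pcp2-BacTRAP; Pcp2-Cre; Rbm17 f/-, with Cre under Pcp2, a floxed allele and a null allele, so that Cre and the null allele occurred only in cKO and cannot be told apart from loss of the protein. Each library came from 1 animal and 1 cerebellum, and RBM17 is a splicing factor that acts at 3' splice sites.

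The proteasome degrades proteins tagged with ubiquitin. Its core particle is a barrel of stacked rings: the outer alpha rings form the gate and the inner beta rings carry the proteolytic sites. The regulatory particle caps the barrel, and its lid removes ubiquitin. Its base, a ring of ATPases with scaffold subunits and ubiquitin receptors, unfolds the substrate and threads it into the core. Subunits are made in matched amounts, and dedicated chaperones join them. When proteasome capacity falls, the transcription factor NFE2L1 is known to raise subunit genes together, and neurons rely on this degradation because they cannot dilute damaged proteins by division.

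Total gene counts ran from 140110897 to 160571518 over the 6 libraries. Rbm17 fell from 41.7 ± 0.73 to 25.9 ± 0.36 CPM (SD, n = 3 each), the gene's reads relative to the library size after TMM scaling, a log2 fold change of -0.69 with SE 0.09 (edgeR quasi-likelihood test, adjusted p = 0.0016), in all 3 cKO libraries. Of 15 Purkinje cell markers 10 fell, and their summed level ranged from 31940 to 42440 CPM in control and from 19290 to 22290 CPM in cKO; none was at 0. In each library that sum was above the sum of any other marker list. Of 14 microglial markers 8 rose, and their summed level ranged from 57.1 to 84.7 CPM in control and from 112 to 186 CPM in cKO, with cKO 1 the highest and none at 0. Markers of granule cells (12), oligodendrocytes (12), interneurons (8) and endothelial cells (10) held no called gene, and of 11 astrocyte and Bergmann glia markers 1 rose and 2 fell. In such bulk pull-downs fewer cells of a type and less RNA per cell cannot be told apart. Pcp2, the gene under which the tag is expressed, was among the 10 markers that fell (1052 to 399 CPM). Its part in what was captured was not tested, and neither was the part of these marker shifts in the proteasome values below.

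Proteasome genes were shifted slightly upward in cKO, and 4 of them passed the test: Psme2, Psmd8, Psmc6 and Psmb4. The other 40 were not called and 0 fell. DESeq2 likewise gave 0 falls. In edgeR 0 of the 44 fell at an unadjusted p under 0.05, beside 1702 of the 16067 genes tested. The 4 that rose were 9.09% of the 44, beside 4.03% of the 16067 genes tested that rose and 3.85% that fell. The log2 fold change was positive in 35 of 44 genes, with a median of 0.13, beside a median of 0.01 and 50.8% positive over all genes tested, and beside a median of -0.03 and 44.7% positive over the 9979 genes with a mean of 1000 counts or more. An unadjusted p under 0.05 was found for 13 of the 44 in the upward direction (29.5%, against 11.5% of all genes). The 3 cKO libraries lay above all 3 control libraries in 16 of the 44 (36.4%, against 15.0% of all genes) and below them in 0, against 13.4%. A mean of 1000 counts or more was reached by 42 of the 44 genes and by 9979 of the 16067. The shares of called and of non-overlapping genes were thus not compared at like depth. DESeq2 called 6 of the 44 as raised, adding Psmb3 and Psmc4, where it called 6.05% of all genes as raised and 5.89% as lowered. With 1 library left out in turn, edgeR called 3 of the 44 without control 1 or without cKO 2, and 1, Psme2, without control 2, control 3, cKO 1 or cKO 3.

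**Figure D1:**
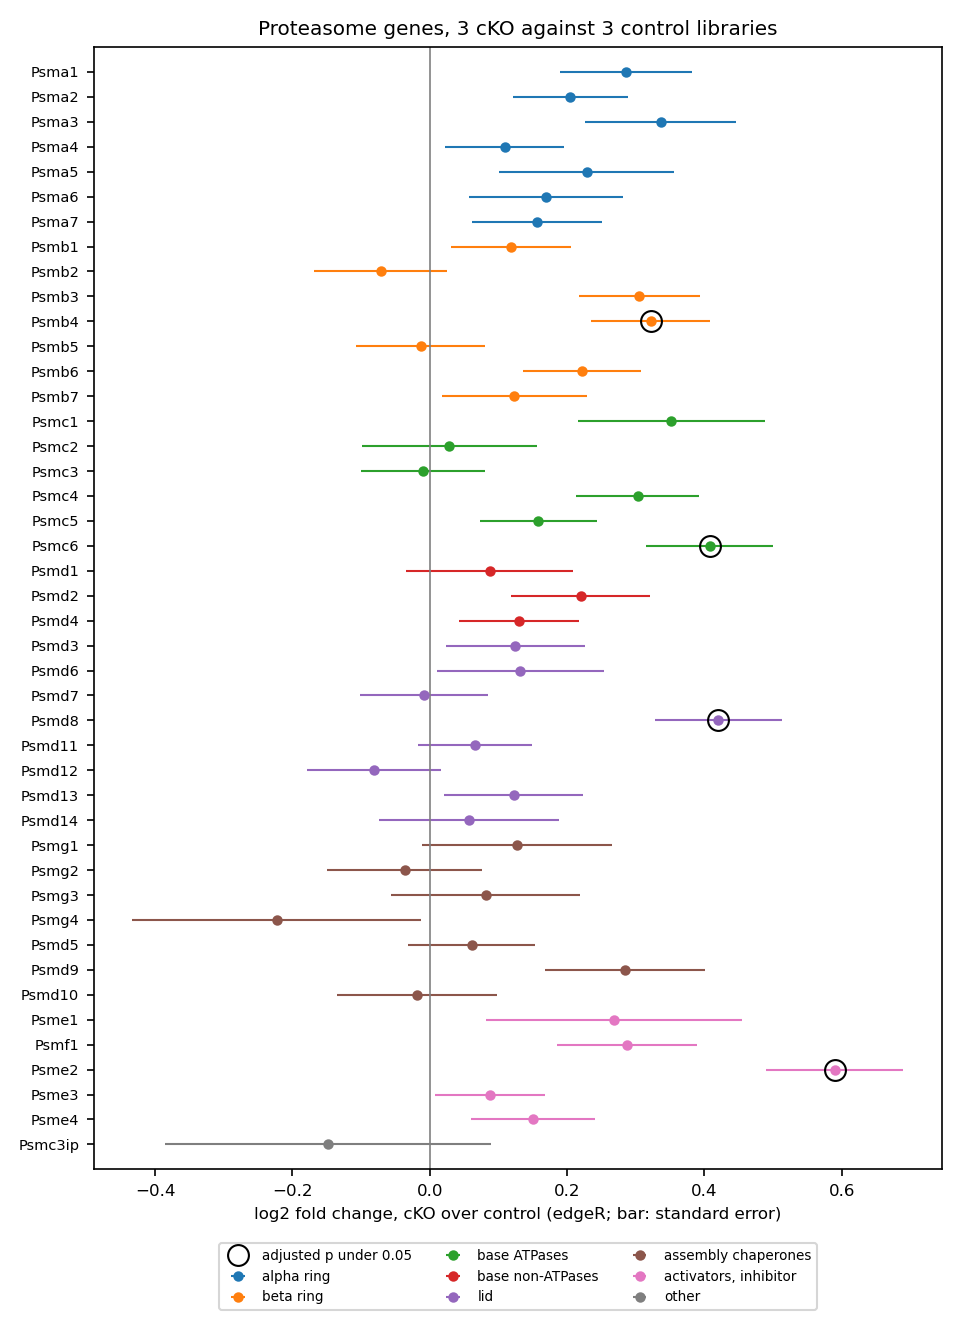
Log2 fold change of cKO over control (horizontal axis) for each of the 44 genes, coloured by role, with bars of 1 standard error from the edgeR fit of 3 against 3 libraries. Of the 44 points 35 lie right of 0, and the 4 circled genes have an adjusted p under 0.05.

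The upward shift was uneven among the cKO libraries. In cKO 1 stood the highest value of 34 of the 44 genes, while cKO 2 and cKO 3 held the highest value of 4 each and control 1 and control 2 of 1 each. The same library had the highest TMM scaling factor (1.097, against 0.93 to 1.02 in the other libraries), the smallest share of counts on the ribosomal RNA precursor row Rn45s (9.56%, against 10.6% to 13.5%) and the highest sum of microglial markers; their part in the shift was not tested. As a share of all deposited counts, before scaling, the 44 genes took 0.290%, 0.295% and 0.294% in the control libraries and 0.406%, 0.326% and 0.343% in cKO 1, cKO 2 and cKO 3. Every cKO library thus lay above every control library by that measure.

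For the core particle the median level of its 14 genes, as log2 CPM relative to the control mean of each gene, was -0.01, 0.02 and -0.02 in control 1, control 2 and control 3. It was 0.31, 0.03 and 0.19 in cKO 1, cKO 2 and cKO 3, so the groups did not overlap, but cKO 2 stood only just above the highest control library. For the 17 genes of the regulatory particle the medians were 0.04, 0.01 and -0.04 in control and 0.27, 0.06 and 0.14 in cKO. Both particles thus ranked the cKO libraries in the same order. The cKO mean exceeded the control mean by 0.18 for the core and by 0.15 for the regulatory particle, and by 0.12 and 0.10 without cKO 1. The core minus the regulatory median, a measure of balance between the particles, was -0.01 ± 0.04 in control and 0.02 ± 0.04 in cKO (SD, n = 3 each). The difference between the groups in that balance was smaller than the spread within either.

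**Figure D2:**
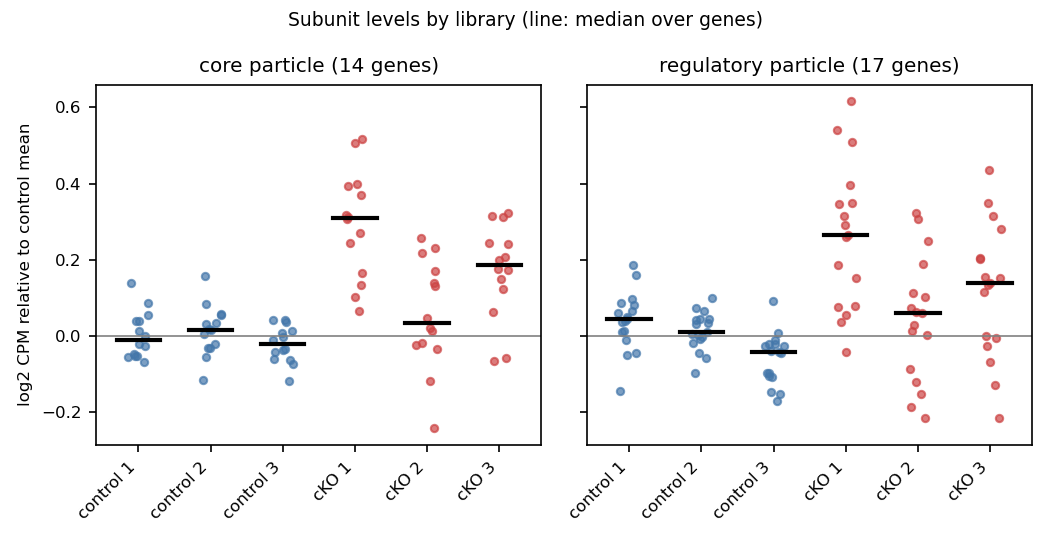
Log2 CPM of each core (left) and regulatory particle (right) gene relative to its control mean, by library, with a black line at the median over genes. The line of cKO 1 is the highest in both panels (0.31 and 0.27), and that of cKO 2 (0.03 and 0.06) lies nearest to the controls.

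All 7 alpha ring genes had a positive log2 fold change, from 0.11 for Psma4 to 0.34 for Psma3, with a median of 0.20, and none of the 7 passed the test. Psma3 (chromosome 12, 70974621 to 70996347, plus strand, mm10) had the largest value. It stood at 90.9, 76.1 and 80.4 CPM in the control libraries and at 118, 96.8 and 97.4 CPM in cKO 1 to 3 (log2 fold change 0.34, SE 0.11, adjusted p = 0.097). Every cKO library was above every control library, but control 1 lay close below cKO 2. Psma1 stood at 52.8, 53.5 and 50.9 CPM in control and 69.1, 57.4 and 65.2 CPM in cKO (0.29, SE 0.10, adjusted p = 0.11). Psma2 stood at 91.9, 89.6 and 84.1 CPM in control and 105, 99.6 and 102 CPM in cKO (0.20, SE 0.08, adjusted p = 0.18), and Psma1 and Psma2 likewise did not overlap between groups. The remaining alpha genes, Psma4 to Psma7, overlapped between the groups.

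In the beta ring 1 of 7 genes rose and 5 of 7 had positive values (median 0.12). Psmb4 (chromosome 3, 94884093 to 94886961, minus strand), a beta subunit without proteolytic activity, stood at 78.7, 85.9 and 82.9 CPM in control and at 108, 98.6 and 102.5 CPM in cKO. It rose 1.25-fold (log2 fold change 0.32, SE 0.09, adjusted p = 0.048), with no overlap between the groups. The call was lost with another scaling (RLE, adjusted p = 0.057), without the count filter (adjusted p = 0.055) and when any single library was left out (adjusted p from 0.086 to 0.16). Psmb3, another subunit without a proteolytic site, had 53.4, 57.7 and 55.4 CPM in control and 71.7, 64.5 and 69.4 CPM in cKO (0.30, SE 0.09, adjusted p = 0.064 by edgeR and 0.032 by DESeq2).

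None of the 3 subunits that carry the proteolytic sites passed the test. Psmb6, the caspase-like subunit, stood at 107, 112 and 114 CPM in control and at 138, 122 and 128 CPM in cKO (log2 fold change 0.22, SE 0.09, adjusted p = 0.16). Its groups did not overlap. Psmb7, the trypsin-like subunit, had a log2 fold change of 0.12 (SE 0.11, adjusted p = 0.56) and Psmb5, the chymotrypsin-like subunit, of -0.01 (SE 0.09, adjusted p = 0.95). These 2 genes overlapped between groups and are named for their function, after their values were seen. Psmb2 had the lowest value of the core, -0.07 (SE 0.10, adjusted p = 0.74). Per kilobase of the longest annotated coding transcript, Psmb2 was the most abundant of the 44 genes in control, at 143 CPM. Psmb6 followed at 139 CPM per kilobase. Subunits of a ring stand in equal number in the particle. The control levels of the beta genes ranged down to 47.5 CPM per kilobase for Psmb1, but that value depends on the length used. The longest transcript has 1970 bases for Psmb1 and 766 to 1183 for the other beta genes. Before division by length Psmb1 stood at 93.6 CPM in control, above Psmb3 (55.5), Psmb4 (82.5) and Psmb5 (91.5).

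Among the base ATPases 1 of 6 genes rose and the median log2 fold change was 0.23, the largest of the rings and subcomplexes of the particles. Psmc6 (chromosome 14, 45329788 to 45349705, plus strand) stood at 61.4, 59.6 and 58.2 CPM in control and at 86.9, 74.7 and 76.1 CPM in cKO. It rose 1.33-fold (log2 fold change 0.41, SE 0.09, adjusted p = 0.026), and the lowest cKO library lay well above the highest control library. Psmc4 stood at 79.4, 80.7 and 76.4 CPM in control and at 104, 89.8 and 98.0 CPM in cKO (0.30, SE 0.09, adjusted p = 0.070 by edgeR and 0.040 by DESeq2), without overlap. Psmc1 stood at 88.8, 79.1 and 70.6 CPM in control and at 122, 85.9 and 96.5 CPM in cKO (0.35, SE 0.14, adjusted p = 0.16). Here control 1 exceeded cKO 2, so the groups overlapped. Psmc5, the most abundant ATPase per length, had a log2 fold change of 0.16 (SE 0.08, adjusted p = 0.32), and the other 2, Psmc2 and Psmc3, had values of 0.03 and -0.01. Within this ring, whose ATPases stand in equal number, the log2 fold changes thus ran from -0.01 to 0.41.

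The 3 other base subunits had values of 0.22 for Psmd2, a scaffold that docks ubiquitin shuttles (SE 0.10, adjusted p = 0.24), 0.13 for Psmd4, a ubiquitin receptor (SE 0.09, adjusted p = 0.44), and 0.09 for Psmd1, a scaffold (SE 0.12, adjusted p = 0.75). None passed the test. In the lid 1 of 8 genes rose and the median was 0.09. Psmd8 (chromosome 7, 29174188 to 29180701, minus strand), a subunit that completes the lid, stood at 156, 148 and 136 CPM in control and at 209, 181.5 and 198 CPM in cKO. It rose 1.34-fold (log2 fold change 0.42, SE 0.09, adjusted p = 0.023), without overlap. Psmd3 (0.12, SE 0.10, adjusted p = 0.54) and Psmd13 (0.12, SE 0.10, adjusted p = 0.54) came next by p. The lid's lowest value was -0.08, for Psmd12. The call of Psmc6 was lost without control 2, control 3, cKO 1 or cKO 3 (adjusted p from 0.077 to 0.12), and so was that of Psmd8 (0.070 to 0.11).

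None of the 7 assembly chaperones passed the test, and their median was 0.06. Psmd9, a chaperone of the base, stood at 20.6, 23.4 and 25.7 CPM in control and at 28.7, 30.2 and 26.1 CPM in cKO (log2 fold change 0.28, SE 0.12, adjusted p = 0.18), with control 3 just below cKO 3. Among the chaperones of the core, log2 fold changes were 0.13 for Psmg1 (SE 0.14, adjusted p = 0.66), -0.04 for Psmg2 (SE 0.11, adjusted p = 0.89) and -0.22 for Psmg4 (SE 0.21, adjusted p = 0.60). Psmg3 stood at 0.08 (SE 0.14, adjusted p = 0.80). Psmg4, at 3.77 to 6.72 CPM over the 6 libraries, had the largest standard error of the 7 chaperones. Psmc3ip, counted apart, stood at 2.33 to 3.47 CPM (-0.15, SE 0.24, adjusted p = 0.78).

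Psme2 had the largest rise of all 44 genes. It encodes the beta subunit of an interferon-inducible activator ring that opens the core particle without ubiquitin or ATP. Psme2 (chromosome 14, 55587441 to 55591113, minus strand) stood at 22.5, 23.0 and 22.8 CPM in control and at 37.2, 32.0 and 33.4 CPM in cKO. It rose 1.505-fold (log2 fold change 0.59, SE 0.10, adjusted p = 0.0066), with control libraries close together and every cKO library far above them. The call held with each library left out in turn (adjusted p from 0.016 to 0.040). Psme1, its partner in the ring, stood at 11.7, 17.9 and 21.1 CPM in control and at 21.6, 19.7 and 19.8 CPM in cKO (0.27, SE 0.19, adjusted p = 0.46). Control 3 exceeded cKO 2 and cKO 3 there, and the spread among controls was wide; Psme1 is named for its place beside Psme2. Microglial markers, as given above, rose in the same libraries and were highest in cKO 1, as was Psme2; their part in its rise was not tested.

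**Figure D3:**
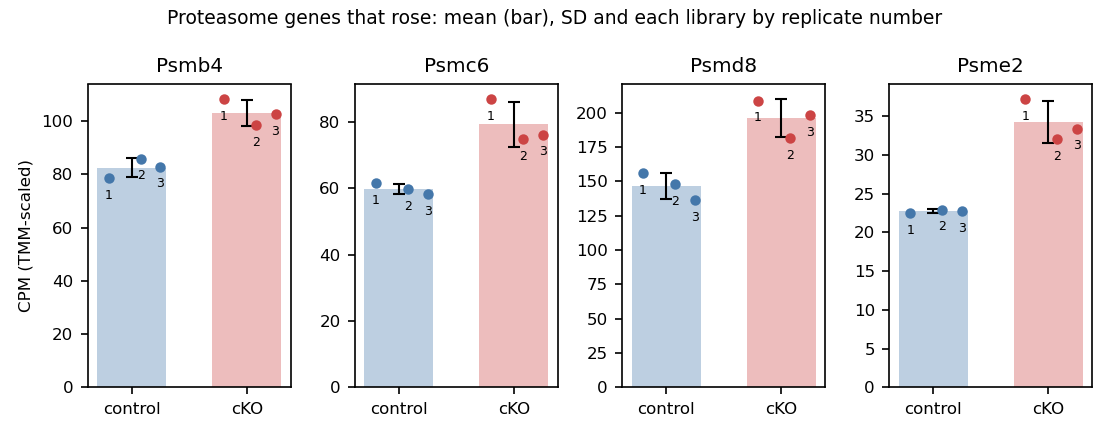
CPM on TMM-scaled library sizes for the 4 genes with an adjusted p under 0.05; bars are means of 3 libraries, error bars SD, and points the libraries numbered by replicate. Every cKO point lies above every control point, and cKO 1 is the highest in each panel.

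The nuclear activator Psme3 had a log2 fold change of 0.09 (SE 0.08, adjusted p = 0.59) and the large single-chain activator Psme4 of 0.15 (SE 0.09, adjusted p = 0.38). Psmf1, which binds the core particle and inhibits it in vitro, stood at 60.3, 53.7 and 48.8 CPM in control and at 68.9, 62.4 and 67.2 CPM in cKO (0.29, SE 0.10, adjusted p = 0.12). The cKO values were all above the control values in these 3 genes, although none passed the test.

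Several proteasome genes have processed pseudogenes, and how reads with several alignments were counted is not stated in the labels or headers, so the gene values were set beside reads that cross annotated introns of a single gene. On such spliced reads, an alternative added after the data were seen, Psme2 and Psmc6 rose (log2 fold changes 0.59 and 0.50, adjusted p = 0.0082 and 0.019), while Psmb4 (0.34, adjusted p = 0.055) and Psmd8 (0.35, adjusted p = 0.083) were not called. On these reads 2 of the 44 genes rose and 0 fell, where 2.9% of all genes rose and 2.82% fell, and 35 of the 44 values were positive.

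Partners of the proteasome that lie outside the symbol pattern were of mixed kinds: further subunits, deubiquitinases, a ligase, chaperones and import factors. Of 13 tested 0 rose and 1 fell, with a median of -0.05, and their difference from the 44 genes was not tested. The further subunits Adrm1 (0.26, SE 0.08, adjusted p = 0.096) and Shfm1 (0.12, SE 0.10, adjusted p = 0.56) and the assembly factor Pomp (0.14, SE 0.09, adjusted p = 0.38), named after their values were seen, had positive values and were not called. Of the 13 values 6 were positive and 7 negative. Uchl5 stood at -0.31 (SE 0.10, adjusted p = 0.083 by edgeR and 0.037 by DESeq2), Fbxo7 at -0.31 (SE 0.13, adjusted p = 0.21) and AI314180 at -0.21 (SE 0.10, adjusted p = 0.25). In these genes, likewise named after their values were seen, every cKO library lay below every control library. The gene that fell was Ube3c, a ubiquitin ligase that associates with the proteasome (101 to 75.6 CPM, log2 fold change -0.42, SE 0.11, adjusted p = 0.049). The 3 immunoproteasome subunits were not called: Psmb8 stood at 0.41 CPM in control and 0.84 CPM in cKO (1.05, SE 0.51, adjusted p = 0.27), Psmb9 at 0.84 and 1.46 CPM (0.79, SE 0.40, adjusted p = 0.28), and Psmb10 at 19.1 and 19.5 CPM. Psmb8 and Psmb9 were thus scarcely detected in either group. At those low levels every cKO library still lay above every control library in both genes, a pattern found in 15.0% of all genes, while Psmb10 overlapped between groups.

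The list for the NFE2L1 pathway held 17 genes, among them also Nfe2l2, Keap1, Nqo1, Hmox1, Gclm and Txnrd1. By edgeR 1 of the 17 rose and 0 fell (median 0.10), and by DESeq2 3 rose and 1 fell. Ufd1l, a cofactor of the segregase that extracts NFE2L1 from the endoplasmic reticulum, rose from 65.3 to 83.1 CPM (0.35, SE 0.09, adjusted p = 0.035), and Nfe2l1 itself stood at 183 and 206 CPM (0.17, SE 0.10, adjusted p = 0.37). Of the 4 ubiquitin genes 1 rose: Rps27a, whose product is a ubiquitin fused to a ribosomal protein, went from 57.4 to 82.8 CPM (0.53, SE 0.09, adjusted p = 0.0080). Of 13 ubiquitin-activating enzymes, shuttles and deubiquitinases 1 rose and 1 fell. Uchl1, a neuronal deubiquitinase, rose from 86.5 to 157 CPM (0.86, SE 0.17, adjusted p = 0.015), and Faf1, a ubiquitin-binding adaptor, fell from 32.2 to 20.1 CPM (-0.68, SE 0.11, adjusted p = 0.0058).

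A motif search over the promoters adds a description of sequence. RefSeq (GRCm38.p6) gave the 250 bases before the start for 37 of the 44 genes. The core of the antioxidant response element, to which NFE2L1 binds, was searched on both strands as TGACNNNGC, and it was found in 5 of the 37 promoters (13.5%) and in 11.5% of 27025 genes. The 5 matches are shown because they include Psmc6, which rose, and 4 genes that were not called; capitals mark the match and flanks are up to 12 bases.
Psmb5, chr14:54618022-54618054, minus strand: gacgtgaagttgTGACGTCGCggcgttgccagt
Psmb6, chr11:70525336-70525356, plus strand: gactaaagagagTGACGGAGC
Psmc6, chr14:45329585-45329617, plus strand: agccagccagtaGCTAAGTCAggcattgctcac
Psmd9, chr5:123228147-123228179, plus strand: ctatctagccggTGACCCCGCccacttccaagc
Psmd12, chr11:107479278-107479301, plus strand: tctGCTGTGTCAcatttgcccccc
The matches of Psmc6 and Psmd12 are on the opposite strand to the gene. The median log2 fold change was 0.22 for the 5 genes with a match and 0.15 for those without. CCAAT was found in 35.1% of the 37 promoters and 37.5% of all genes, and TATAAA in 8.1% and 14.3%.

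Splice junctions of several proteasome genes shifted in cKO. Junctions that share a donor or an acceptor were grouped, and each was tested against the rest of its group. Of 291 junctions tested in 43 of the 44 genes, 14 gained share at an adjusted p under 0.05 and 0 lost share (4.81%, beside 2.02% of all 112047 junctions tested that gained and 0.244% that lost). These 14 lay in 11 genes, and 11 of the 14 are absent from the GENCODE M21 annotation. A gain of 5 percentage points or more of the group was reached by 3 of the 291 (1.03%, beside 0.659% up and 0.0928% down overall), in Psmf1, Psmc2 and Psme3. The core particle held 6 of the 14, the regulatory particle 4, the activators and inhibitor 4 and the chaperones 0.

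Psmf1 (chromosome 2, 151715812 to 151744186, minus strand) skipped its exons 2 and 3 more often in cKO. The junction that joins exon 1 to exon 4 (intron 151729677 to 151741010, annotated in a transcript classed as nonsense-mediated decay) was read 114, 105 and 79 times in control and 453, 337 and 422 times in cKO. As a share of skipping reads plus inclusion reads, the latter being the mean of the junctions of exons 1 and 2 and of exons 3 and 4, skipping stood at 11.6%, 11.4% and 10.2% in control and at 29.5%, 28.2% and 29.9% in cKO. The groups were tight and far apart: 11.1% ± 0.75 against 29.2% ± 0.90 (SD, n = 3 each; share of the junction group 3.70% to 11.6%, adjusted p = 5.0e-05). Exons 2 and 3 are 153 and 83 bp long, so that 236 bp are lost, which leaves a remainder of 2 when divided by 3 and shifts the frame. The sequences show both joins, 30 bases on either side from the GENCODE transcripts, with capitals for the bases after the join.
Psmf1 exon 1 to exon 2: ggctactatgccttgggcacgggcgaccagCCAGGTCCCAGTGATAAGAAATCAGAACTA
Psmf1 exon 1 to exon 4: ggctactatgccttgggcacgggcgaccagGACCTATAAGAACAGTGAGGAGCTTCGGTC

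In Psmc2 (chromosome 5, 21785283 to 21803787, plus strand), a base ATPase whose level did not differ detectably, an unannotated junction (21796633 to 21799406) ended 16 bp before exon 6. It had 0 reads in each control library and 59, 44 and 34 reads in cKO. Of the reads leaving the same donor it took 5.92%, 5.81% and 4.26% in cKO 1 to 3, and its group share was 5.33% ± 0.93 (SD, n = 3; adjusted p = 0.00016). The 16 added bases leave a remainder of 1, so the frame shifts.

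Psme3 (chromosome 11, 101316213 to 101323537, plus strand) used an unannotated exon in its intron 1. The junction into it (101316489 to 101316590) was read 19, 0 and 0 times in control and 148, 96 and 90 times in cKO. From the donor of exon 1 it took 2.53%, 0% and 0% of reads in control and 14.1%, 11.0% and 10.8% in cKO, a mean of 11.9% ± 1.8 (SD, n = 3; adjusted p = 0.0045). Every cKO library was far above control 1, the only control library with reads. The exon ended at either of 2 sites, giving 158 or 236 bp. The exit from the longer form (101316827 to 101317180) had 0 reads in each control library and 52, 45 and 34 in cKO (adjusted p = 0.0066). The call of the entry junction was lost without cKO 1 (adjusted p = 0.077), while those of Psmf1 and Psmc2 held with each library left out.

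**Figure D4:**
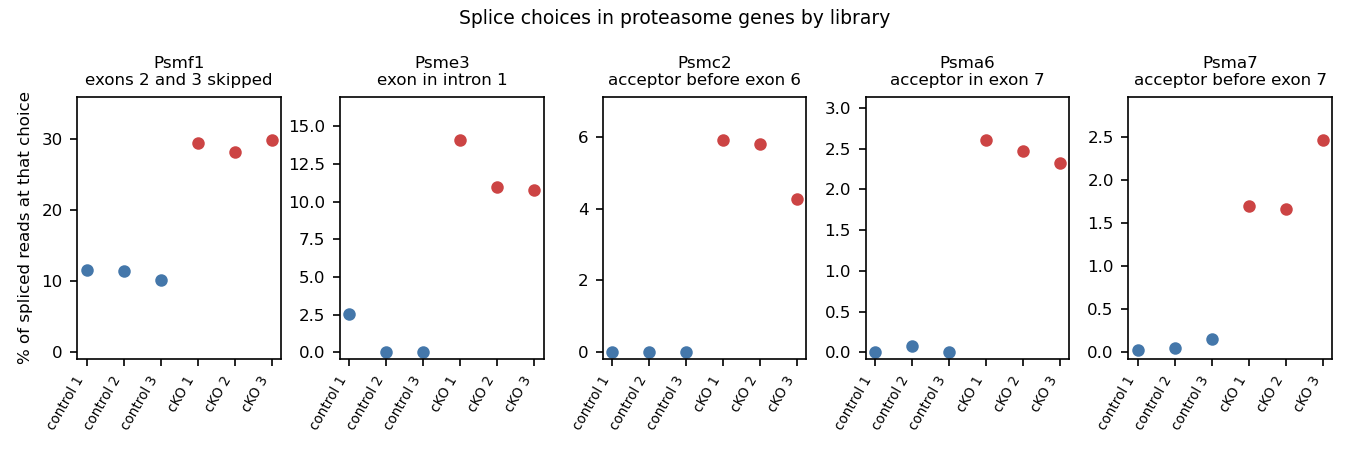
Percentage of spliced reads at a choice that used the named route, for 5 genes in each of the 6 libraries: for Psmf1 relative to skipping plus inclusion, for the others relative to all reads sharing the donor. In all 5 panels the 3 cKO points lie above the 3 control points, from near 2% in Psma6 and Psma7 to near 29% in Psmf1.

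The other junctions with an adjusted p under 0.05 were minor routes, below 5 points of share, and are named after their values were seen. In Psma7, a gate subunit of the alpha ring, an annotated acceptor that adds 266 bp before exon 7 (intron 180036840 to 180036937 on chromosome 2) had 1, 2 and 6 reads in control and 101, 72 and 130 in cKO (0.08% to 1.94% of the group, adjusted p = 9.8e-05). In Psma6 an unannotated acceptor inside exon 7 (intron 55414499 to 55418280 on chromosome 12), which leaves out 44 bp, had 0, 2 and 0 reads in control and 101, 67 and 84 in cKO (adjusted p = 2.5e-05), or 2.61%, 2.47% and 2.32% of the donor's reads in cKO. Both were present in all 3 cKO libraries at similar levels. A second Psma6 junction from the same donor (intron 55414499 to 55418283), also with an adjusted p under 0.05, was uneven. It took 0%, 0% and 0.09% of the donor's reads in control and 1.91%, 1.44% and 0.11% in cKO 1, cKO 2 and cKO 3. In Psmb5 an annotated donor inside exon 2, which leaves out 261 bp and keeps the frame, had 0, 4 and 3 reads in control and 53, 45 and 53 in cKO (adjusted p = 0.0026). The sites are shown with 20 intronic and 10 exonic bases of the route concerned, and capitals mark the acceptor AG or the donor GT; those of Psma7 set the minor beside the main acceptor.
Psma7 minor acceptor, chr2:180036830-180036859, minus strand: tattggtgtcattttcttAGcttacaggac
Psma7 main acceptor, chr2:180036564-180036593, minus strand: tgatgcttcttgtggagcAGattctaaatc
Psma6 acceptor in exon 7, chr12:55418261-55418290, plus strand: cgctcaccttgttgctctAGcagagagaga
Psmb5 donor in exon 2, chr14:54616756-54616785, minus strand: gccacagcagGTgcttatattgcttcccag
All 3 acceptors carry the usual AG. The 20 intronic bases hold 13 pyrimidines at the minor and 10 at the main acceptor of Psma7, and 14 at that of Psma6.

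Beyond single junctions, reads on unannotated introns took a larger share of proteasome transcripts in cKO. Over the 44 genes that share was 0.214%, 0.315% and 0.255% in control and 0.592%, 0.430% and 0.423% in cKO, so the groups did not overlap (0.261% ± 0.051 against 0.482% ± 0.096, SD, n = 3 each). For the core particle it was 0.353% ± 0.11 and 0.538% ± 0.11, and there the groups overlapped, with control 2 (0.481%) above cKO 2 (0.459%). For the regulatory particle it was 0.111% ± 0.014 and 0.324% ± 0.10, without overlap. The chaperones stood at 0.240% and 0.664%, the activators and inhibitor at 0.540% and 0.895%. Over all spliced reads of the libraries the share was 1.73% ± 0.23 in control and 2.07% ± 0.053 in cKO. Those reads include junctions assigned to no gene or to several genes, while the proteasome sets hold junctions of a single gene only. The levels of the proteasome sets and of all spliced reads are therefore not like for like.

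By gene, 40 of the 44 had 1000 or more spliced reads in every library. In 15 of these 40 (37.5%) all 3 cKO libraries lay above all control libraries, beside 26.6% of 6834 genes counted in the same way, and in 1, Psme4, they lay below, beside 2.24%. The largest means in cKO were those of Psme3 (0.62% in control, 2.25% in cKO), and of Psmd12, a lid subunit (0.31% and 1.72%). Junctions read in all 3 cKO libraries and in no control library numbered 18 of 579 in the proteasome genes (3.11%, beside 2.31% of all junctions), and the reverse pattern 0, beside 0.317%. These shares were not far from those of all genes, and the difference from them was not tested.

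**Figure D5:**
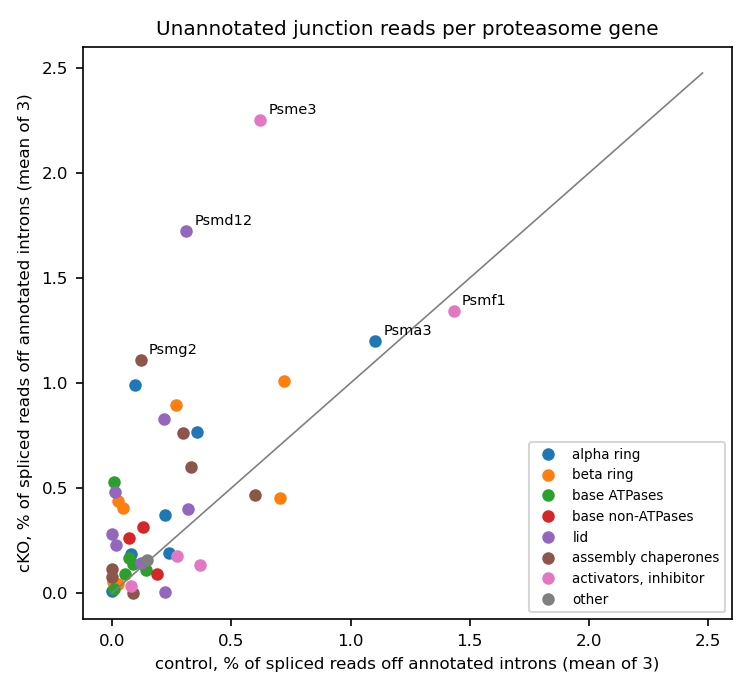
Share of spliced reads on introns absent from the annotation, mean of 3 control libraries (horizontal) against mean of 3 cKO libraries (vertical), in percent, 1 point per gene with the line of equality; the 5 highest in cKO are named. Psme3 and Psmd12 lie farthest above the line, at 2.25% and 1.72% in cKO.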

How the data were processed

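Ribosome-bound RNA of 6 mouse cerebella (3 control, 3 cKO) was amplified from 10 ng with NuGEN Ovation, per the labels' protocols, so reads are not independent molecules. The tools, per the submitters' processing notes, were HTSeq 0.6.0 and TopHat2 2.1.0, with build mm10. The authors deposited unnormalized counts of reads per gene, and counts of reads per splice junction in a TopHat list per library, per the file headers. Which annotation and strand setting the counting used is not given in the sources used here.

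Genes were tested with edgeR 4.0.16 (R 4.3.3): filterByExpr, TMM scaling, quasi-likelihood test of cKO against control, and Benjamini-Hochberg adjustment over all 16067 genes tested (threshold 0.05). Standard errors come from the fold change and its F statistic. Junctions with 10 or more reads over the libraries and reads in 2 or more were tested with diffSpliceDGE and adjusted over all 112047. Junction coordinates are the first and last base of the intron. Both scripts were tested on simulated data. DESeq2 1.42.0 and limma-voom (limma 3.58.1) were alternatives, beside other scalings, filters, the replicate block and leaving out each library.

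Members and lists were chosen with earlier results of these data known. Genes named are Rbm17, every called member, the 3 smallest p and highest level per kilobase in each role group, and called genes of each list; others were named after their values were seen.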

Additional observations from a re-analysis of the deposited data

How the results depend on the processing

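Of the 4 rises, that of Psme2 held whichever library was left out. Those of Psmc6 and Psmd8 held when control 1 or cKO 2 was left out and were lost when any other library was. That of Psmb4 was lost each time, and with all 6 libraries also under RLE scaling and without the count filter. With 1 library left out, 1 to 3 of the 44 genes rose, and without control 2, control 3, cKO 1 or cKO 3 that gene was Psme2. On spliced reads 2 rose. Over all genes the numbers that rose and fell were 1059 and 1031 with DESeq2, 264 to 501 and 238 to 555 with 1 library left out, and 427 rose on spliced reads. Of the other lists' genes 3 rose and 2 fell; these became 6 and 4 with DESeq2, 1 fell with upper quartile scaling, and 1 to 3 rose and 1 to 2 fell with 1 library left out. Junctions called numbered 2 to 5 with 1 library left out (5 without control 2, where Psmd12 was added), and 1 at a share change of 10 percentage points. With 1 library left out, the log2 fold change of Psmd1 ran from -0.0275 (without cKO 1) to 0.187, and that of Psmg2 from -0.121 to 0.0363 (without cKO 2; 0.0106 without control 1), so their signs reversed; neither gene was called. Of the remaining alternatives for named genes and junctions 494 kept their direction and side of the threshold, 34 lost the call and 5 gained one. The cause was not tested. The labels give the groups the same replicate numbers, but same-numbered libraries did not deviate together (correlations 0.045, -0.062 and 0.021). When the replicate number was a block, 7 proteasome genes and 6 genes of the other lists rose. The share of all genes that rose with the block is not given here, so these counts stand without a background. The median over the 44 genes was 0.122 with the block and 0.129 without it. Precision is limited by 3 libraries a group: standard errors of the log2 fold changes ran from 0.08 to 0.24, so differences of the size of the median were not detectable gene by gene.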

Other observations

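Some cryptic junctions of proteasome genes had most of their reads in 2 cKO libraries and few or none in the other one. In Psma3 an unannotated junction (chromosome 12, intron 70979009 to 70983323) had 0 reads in each control library and 71, 1 and 59 reads in cKO 1, cKO 2 and cKO 3 (adjusted p = 0.00016). Its donor was not confined to those libraries: joined to an acceptor 5 bases nearer (intron end 70983318), it had 0, 5 and 11 reads in control and 13, 33 and 51 in cKO. In Psmb2 (chromosome 4, intron 126684245 to 126687049) the numbers were 0 in each control library and 87, 2 and 72 (adjusted p = 0.00013). Of the donor's reads the Psmb2 junction took only 1.26%, 0.04% and 1.13% in cKO 1, cKO 2 and cKO 3. A further junction of Psme3 (101320810 to 101321791) had 85, 65 and 0 reads in cKO, and one of Psmd1 (chromosome 1, 86077500 to 86078583) had 49, 35 and 0, with 0 in each control library. These were minor routes: 2.94%, 2.55% and 0% of the acceptor's reads for Psme3, and 2.94%, 2.81% and 0% of the donor's reads for Psmd1. In Psmd12 (chromosome 11, 107484496 to 107484719) cKO 1 held most reads, 130 against 19 and 23, beside a 31 bp exon in intron 1. One of Psmd8 (chromosome 7, 29175702 to 29176072), with 31, 13 and 16 reads, was read in every cKO library. The 2 Psma3 donors are shown with capitals at the donor GT.
Psma3 unannotated donor, chr12:70978999-70979028, plus strand: gctcaaacagGTaatcagacttgcagtata
Psma3 main donor, chr12:70978806-70978835, plus strand: aaaacagtagGTaagaagccctgtttgatt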
